A study of Mus musculus with 9 samples.

Results

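Peroxisome biogenesis and peroxisomal oxidation were followed through 30 genes of the 32285 gene identifiers in the count tables. They were taken from a list of names, which was chosen with earlier results of these data known. The list holds 13 biogenesis factors (Pex genes) and 17 enzymes and transporters of the organelle. All 30 genes were measured and all 30 passed the filter on low counts (at least 5 counts in at least 3 libraries), which kept 17173 genes. Acox2 passed it through the vehicle libraries alone, where it is high, so it had to differ, and counts are also given without it. The RNAseq data are 9 libraries of wild-type (WT) primary mouse cells from the stromal vascular fraction (SVF) of subcutaneous white fat, the mixed cells that remain once mature adipocytes are removed. Cells were differentiated for 6 days with 25 µM mizoribine (MIZ), differentiated for 6 days with vehicle (DMSO), or left undifferentiated, with 3 libraries a group. MIZ is an inhibitor of inosine monophosphate dehydrogenase and so of purine synthesis, and the comparison asks how its inhibition changes gene expression during adipogenesis. Both differentiated groups received insulin, dexamethasone and IBMX, and then insulin, T3 and the PPARγ agonists troglitazone and rosiglitazone, so that drugs that activate a regulator of lipid genes are shared by MIZ and vehicle cells and belong to the difference between vehicle and undifferentiated cells. For undifferentiated cells the labels give neither a time nor a vehicle. Cells came from neonatal mice and were plated by individual animal, the study calls its replicates biological, and whether a replicate number marks the same animal in several groups is not given.

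Libraries held 28760721 to 55288455 counts. Levels are given in CPM, the counts of a gene scaled to a common library size after TMM normalisation, and differences as log2 fold changes with the standard error (SE) of edgeR's quasi-likelihood test and its p adjusted over all 17173 genes by the Benjamini-Hochberg method. Changes were called at an adjusted p under 0.05. The labels call all 9 libraries primary adipocytes, and the adipocyte markers did not bear this out for undifferentiated cells. The summed level of 12 adipocyte markers was 1415 to 1799 CPM in MIZ cells, 17529.9 to 18170.2 CPM in vehicle cells and 109 to 111 CPM in undifferentiated cells, with Lep at 0 counts in MIZ cells and Lep and Cidec at 0 counts in undifferentiated cells. Lep held only 7 counts over all vehicle libraries as well and did not pass the filter. Of the 11 markers that could be tested, 11 were lower in MIZ than in vehicle cells and 11 were higher in MIZ than in undifferentiated cells. Among all genes tested, 35.1% were called lower in the former comparison and 33.7% higher in the latter. Brown or beige adipocyte markers summed to 14.8 to 16.7 CPM in MIZ cells, 267 to 271 CPM in vehicle cells and 6.72 to 8.57 CPM in undifferentiated cells, with 5 of 5 lower in MIZ than in vehicle cells. Of these, Ucp1 and Cidea passed the filter through vehicle libraries alone. Markers of other cells moved unevenly. Of 7 mural or smooth muscle markers, 5 were higher, 1 (Cspg4) was lower and 1 (Des) did not pass between MIZ and vehicle cells, with a sum of 6534 to 8593 CPM in MIZ cells, 152 to 178 CPM in vehicle cells and 722 to 861 CPM in undifferentiated cells, most of it from Acta2 and Tagln in MIZ cells. Of 10 preadipocyte or stromal markers, 5 were higher, 2 (Cd34 and Col3a1) were lower and 3 did not pass, with a sum of 7569 to 9657 CPM in MIZ cells, 6092 to 6962 CPM in vehicle cells and 20664 to 22997 CPM in undifferentiated cells. Most of each sum came from Col1a1 and Col3a1. Against undifferentiated cells 2 of the 10 (Pdgfrb and Thy1) were higher in MIZ cells, 7 lower and 1 did not pass. Of 8 macrophage or leukocyte markers, 1 was higher, 1 lower and 6 did not pass between MIZ and vehicle cells, with a sum of 569 to 774 CPM in MIZ cells, 408 to 681 CPM in vehicle cells and 2700 to 2994 CPM in undifferentiated cells. Endothelial markers summed to 2.57 to 4.08 CPM in MIZ cells, 5.36 to 7.28 CPM in vehicle cells and 27.2 to 29.7 CPM in undifferentiated cells (0 of 4 tested higher and 2 lower in MIZ than in vehicle cells). Skeletal muscle markers summed to 39.9 to 68.6 CPM in MIZ cells, 4.38 to 8.89 CPM in vehicle cells and 4.29 to 4.72 CPM in undifferentiated cells (1 of 2 tested higher), with Myod1 and Myog at 0 counts in MIZ cells. Schwann cell markers summed to 24.5 to 37.6 CPM in MIZ cells, 13.01 to 14.7 CPM in vehicle cells and 16.6 to 20.8 CPM in undifferentiated cells (2 of 4 higher and 1 lower), and epithelial markers to under 1 CPM in every library. The part of these shifts in the results on peroxisomal genes was not tested, and in bulk RNA fewer adipocytes and less RNA per adipocyte cannot be told apart.

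Peroxisomes are single-membrane organelles that shorten very-long-chain and branched fatty acids and begin the synthesis of ether lipids. Their matrix enzymes are made in the cytosol, bound by the receptors Pex5 or Pex7, brought to a docking complex of Pex13 and Pex14, and released inside, after which the receptor is tagged with ubiquitin by a ligase that holds Pex2 and Pex10 and pulled back out with the ATPase Pex6, which Pex26 anchors. Membrane proteins are inserted with Pex3, Pex16 and Pex19, and proteins of the Pex11 family shape and elongate the organelle. Peroxisomes multiply when preadipocytes become fat cells, and in rodent liver many genes of peroxisomal β-oxidation are targets of PPARα.

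Of the 30 genes, 28 were lower and 2 higher in MIZ than in vehicle cells, where 35.1% of all genes tested were called lower and 35.9% higher. The median difference was -1.41 on the log2 scale over the 30 genes and 0.02 over all genes tested. Without Acox2, 27 genes were lower and the median was -1.39. The 2 higher genes were Agps and Far1, both of ether lipid synthesis. Falls of more than 2-fold were called for 23 of the 30 genes and for 16.8% of all genes. All MIZ libraries lay below all vehicle libraries for 28 of the 30 genes, as they did for 36.0% of all genes. Compared with undifferentiated cells, vehicle cells had 27 of the genes at a higher and 2 at a lower level (36.2% and 41.5% of all genes), 23 of them higher by more than 2-fold (17.2% of all genes), with a median of 1.73 over the 30 genes and -0.08 over all genes tested. Without Acox2 these were 26 higher genes and a median of 1.70. The summed level of the 30 genes was 1075, 1112 and 1145 CPM in MIZ cells, against 3196, 3077 and 3051 CPM in vehicle cells and 969, 955 and 962 CPM in undifferentiated cells. The sum in MIZ cells thus lay near that of undifferentiated cells and far below that of vehicle cells, with no overlap between any of the groups. The vehicle libraries enter both comparisons, which are therefore not independent of each other.

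MIZ cells and undifferentiated cells differed less and in both directions. Of the 30 genes, 15 were higher and 5 lower in MIZ cells, where 33.7% of all genes tested were called higher and 33.3% lower, and 10 did not pass. The median was 0.33 over the 30 genes, 0.29 without Acox2 and -0.00125 over all genes tested. These 5 lower genes (Abcd3, Acox3, Amacr, Decr2 and Phyh) were also lower in MIZ than in vehicle cells, a pattern that 12.4% of all genes tested had.

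**Figure D1:**
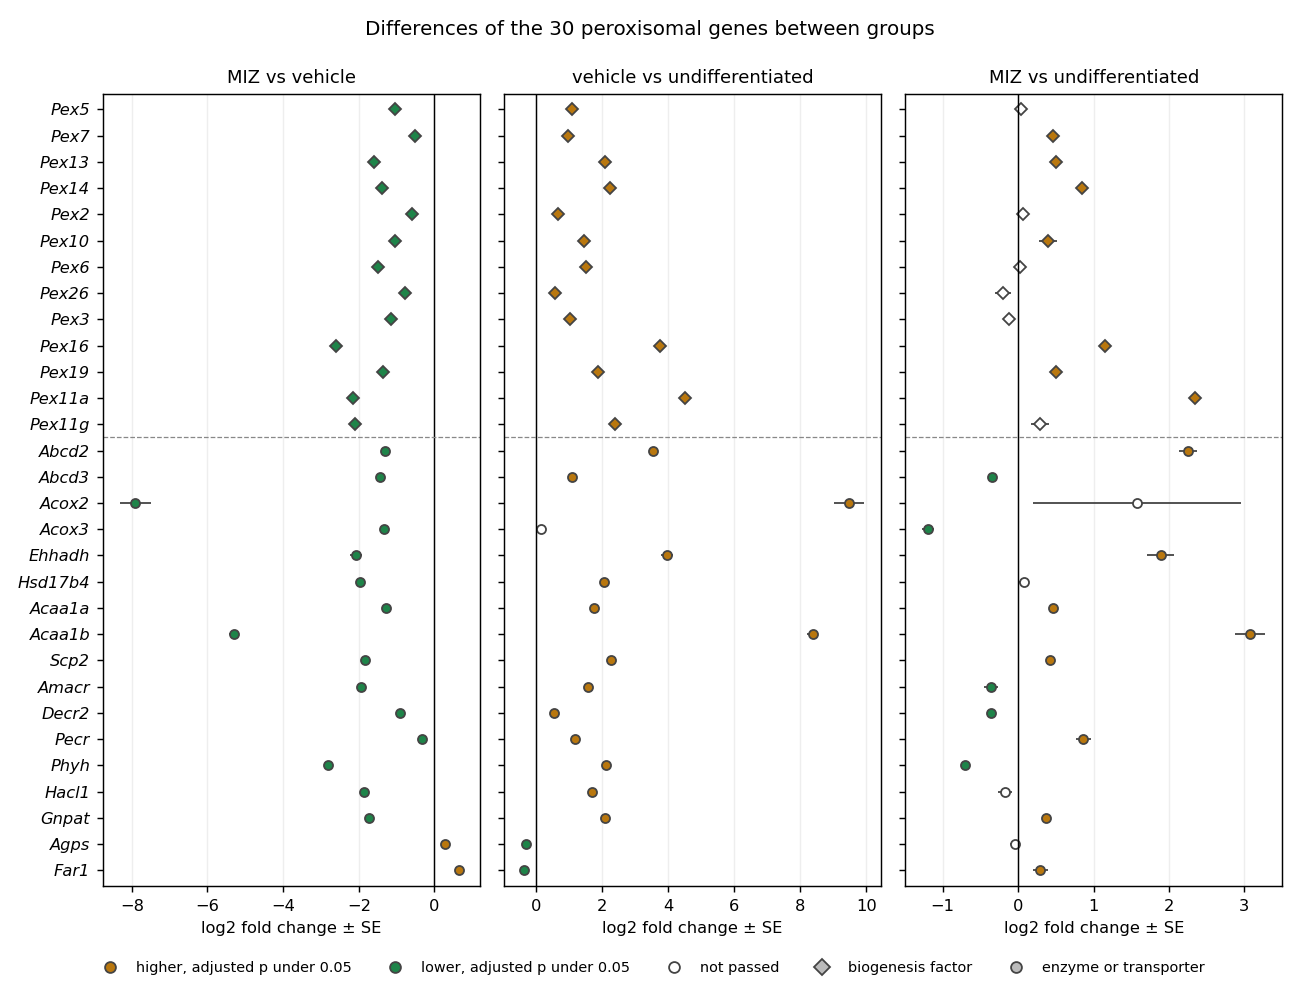
log2 fold changes (x axes, with their own range in each panel) of the 30 genes (y axis) between MIZ and vehicle, vehicle and undifferentiated, and MIZ and undifferentiated cells, with bars of 1 SE; diamonds are biogenesis factors, circles enzymes and transporters, and open symbols did not pass an adjusted p of 0.05. In the first panel all genes except Agps and Far1 lie left of 0, in the second all except these 2 lie right of 0 (Acox3, open, did not pass), and the positions of Acox2 depend on the prior count because 2 groups held 3 or fewer counts.

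The biogenesis factors all moved one way in both comparisons with vehicle cells. All 13 were lower in MIZ than in vehicle cells, 10 by more than 2-fold (35.1% and 16.8% of all genes tested), with a median of -1.36. All 13 were higher in vehicle than in undifferentiated cells, 10 by more than 2-fold (36.2% and 17.2% of all genes tested), with a median of 1.51. Against undifferentiated cells, 7 of the 13 were higher in MIZ cells (Pex7, Pex13, Pex14, Pex10, Pex16, Pex19 and Pex11a), 0 were lower and 6 did not pass, with a median of 0.40. Of all genes tested, 33.7% were called higher and 33.3% lower there. Their summed level was 395 ± 0.512 CPM in MIZ cells, against 1046 ± 7.01 CPM in vehicle cells and 301 ± 5.53 CPM in undifferentiated cells (SD, n = 3 libraries).

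Among the membrane insertion factors, Pex16, which recruits Pex3 to the membrane, fell most of all 13. It had 17.3, 17.9 and 20.9 CPM in MIZ cells, 110.0, 113.0 and 116.5 CPM in vehicle cells and 8.29, 8.72 and 8.26 CPM in undifferentiated cells. The MIZ libraries stood between the others without touching either group. The difference was -2.60 ± 0.0692 (adjusted p = 1.17e-10) between MIZ and vehicle cells, a 6.06-fold lower level, and 1.15 ± 0.0730 (adjusted p = 1.69e-07) between MIZ and undifferentiated cells. Pex19, the chaperone and import receptor of membrane proteins, was the most abundant biogenesis factor in CPM. It averaged 103 ± 2.43 CPM in MIZ cells, 263 ± 2.01 CPM in vehicle cells and 72.3 ± 3.24 CPM in undifferentiated cells, with a difference of -1.36 ± 0.0440 between MIZ and vehicle cells. Pex3, the membrane anchor of Pex19, had 14.1, 16.8 and 16.3 CPM in MIZ cells, 37.2, 34.7 and 33.3 CPM in vehicle cells and 16.7, 18.1 and 16.4 CPM in undifferentiated cells. MIZ and undifferentiated libraries overlapped for Pex3 (-0.12 ± 0.0782, adjusted p = 0.191), so of the 3 insertion factors Pex16 and Pex19 were above their undifferentiated level in MIZ cells, and for Pex3 no difference was detected.

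The elongation factors Pex11a and Pex11g were the next largest falls. Pex11a, whose gene responds to PPARα agonists in rodent liver, had 11.8, 13.3 and 13.4 CPM in MIZ cells, 58.0, 58.2 and 54.7 CPM in vehicle cells and 2.54, 2.47 and 2.56 CPM in undifferentiated cells. It was the biogenesis factor with the largest rise in vehicle over undifferentiated cells (4.49 ± 0.0725, 22.5-fold) and in MIZ over undifferentiated cells (2.34 ± 0.0739, adjusted p = 1.46e-09), and fell by 2.15 ± 0.0619 on the log2 scale in MIZ against vehicle cells. Pex11g had 4.12, 3.86 and 4.46 CPM in MIZ cells, 19.4, 16.4 and 17.8 CPM in vehicle cells and 3.64, 2.88 and 3.65 CPM in undifferentiated cells. Its fall against vehicle was of like size (-2.10 ± 0.113, adjusted p = 2.36e-08), while against undifferentiated cells the MIZ libraries lay just above without passing (0.29 ± 0.121, adjusted p = 0.0559). That call is borderline, since it passed with DESeq2 (adjusted p = 0.0429), with DESeq2's size factors in edgeR (0.043), with a replicate block (0.0286) and without vehicle replicate 1 (0.0435).

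Both docking factors fell by more than 2-fold. Pex13 averaged 37.5 ± 2.75 CPM in MIZ cells, 114 ± 3.34 CPM in vehicle cells and 26.5 ± 0.783 CPM in undifferentiated cells. Pex14 averaged 55.8 ± 0.212 CPM in MIZ cells, 146 ± 2.52 CPM in vehicle cells and 31.0 ± 1.09 CPM in undifferentiated cells. The differences between MIZ and vehicle cells were -1.60 ± 0.0576 for Pex13 and -1.39 ± 0.0413 for Pex14, and both stayed above the undifferentiated level (0.50 ± 0.0581 and 0.85 ± 0.0419). Of the exonic bases of Pex14, 28.3% are overlapped on the other strand by the gene model Gm17029, and since the sources used here do not say whether counting used strand, its counts may hold reads of both.

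The receptors and the machinery that recycles them were lower in MIZ than in vehicle cells as well. Pex5, the receptor of most matrix enzymes, had 55.7, 51.5 and 53.2 CPM in MIZ cells, 105.5, 111.0 and 112.9 CPM in vehicle cells and 52.6, 51.6 and 52.3 CPM in undifferentiated cells. MIZ cells were 2.05-fold below vehicle cells (-1.04 ± 0.0457, adjusted p = 4.75e-09) and overlapped with undifferentiated cells (0.04 ± 0.0457, adjusted p = 0.507). Pex7, the receptor of a smaller set that includes thiolase, Phyh and Agps, averaged 18.1 ± 1.47 CPM in MIZ cells, 25.9 ± 0.313 CPM in vehicle cells and 13.2 ± 0.559 CPM in undifferentiated cells, and its fall of 0.52 on the log2 scale (SE 0.0675) was the smallest of the 13.

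Of the ubiquitin ligase, Pex2 had 27.0, 24.8 and 25.5 CPM in MIZ cells, 40.7, 38.5 and 37.5 CPM in vehicle cells and 23.9, 24.7 and 25.7 CPM in undifferentiated cells, and Pex10 averaged 6.48 ± 0.589 CPM in MIZ cells, 13.4 ± 1.66 CPM in vehicle cells and 4.93 ± 0.385 CPM in undifferentiated cells. Pex2 fell by 0.59 ± 0.0558 and Pex10 by 1.05 ± 0.112 on the log2 scale between MIZ and vehicle cells. Of the extraction machinery, the ATPase Pex6 had 35.9, 35.8 and 33.0 CPM in MIZ cells, 88.3, 97.7 and 105.9 CPM in vehicle cells and 36.5, 31.9 and 34.2 CPM in undifferentiated cells. Its difference from vehicle was -1.48 ± 0.0749, and MIZ and undifferentiated libraries overlapped (0.03 ± 0.0749, adjusted p = 0.761). Pex26, the membrane anchor of Pex6, had 9.29, 9.64 and 7.89 CPM in MIZ cells, 13.1, 15.8 and 16.9 CPM in vehicle cells and 10.4, 10.3 and 10.1 CPM in undifferentiated cells. It was the only biogenesis factor whose MIZ libraries all lay below the undifferentiated ones, a difference that did not pass in the fit of 9 libraries (-0.20 ± 0.106, adjusted p = 0.123).

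**Figure D2:**
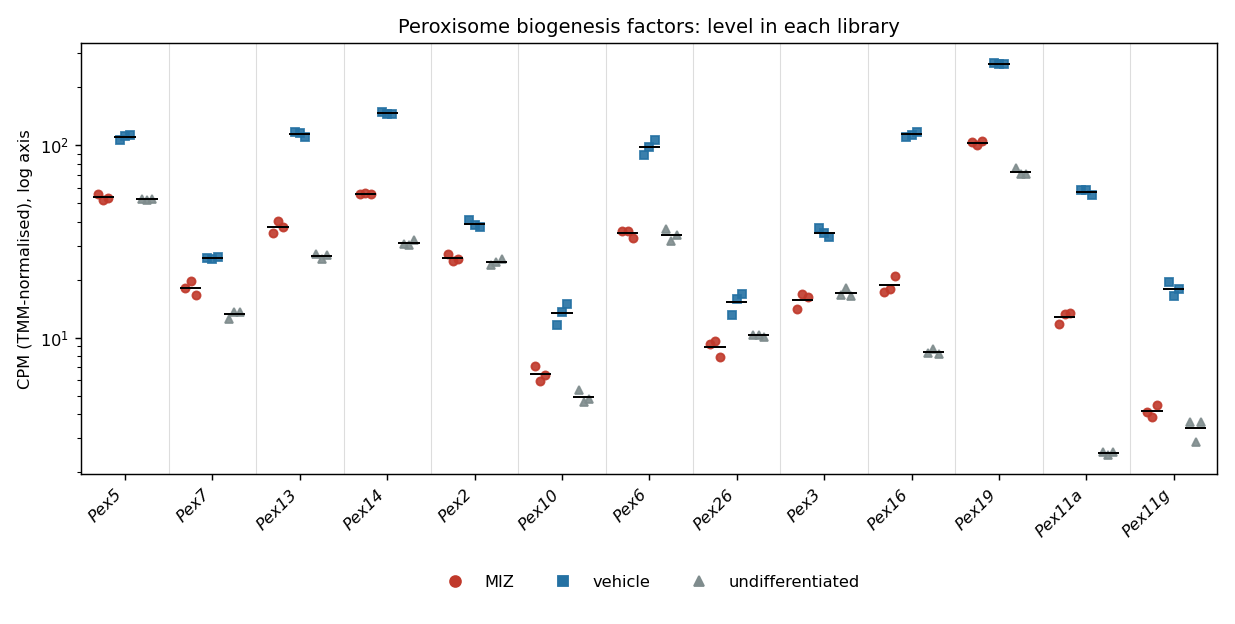
Level of each of the 13 biogenesis factors in each library (y axis, CPM, log axis), with MIZ, vehicle and undifferentiated libraries side by side for each gene; points are libraries and black lines the mean of 3. For every gene the 3 vehicle points stand above the others, from Pex10 (13.4 CPM on average in vehicle cells) to Pex19 (263 CPM). The MIZ points of Pex7, Pex10, Pex11a, Pex11g, Pex13, Pex14, Pex16 and Pex19 all lie above the undifferentiated ones, and those of Pex26 below.

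The enzymes and transporters had a wider range than the biogenesis factors. Of the 17, 15 were lower and 2 higher in MIZ than in vehicle cells, 13 lower by more than 2-fold, with a median of -1.72 (-1.58 over the 16 other than Acox2). Of all genes tested, 35.1% were called lower there, 16.8% lower by more than 2-fold, and 35.9% higher. Between vehicle and undifferentiated cells, 14 were called higher and 2 lower in vehicle cells (36.2% and 41.5% of all genes tested), with a median of 1.75 (1.73 without Acox2). Against undifferentiated cells, 8 were higher in MIZ cells, 5 lower, and 4 did not pass (Acox2, Hsd17b4, Hacl1 and Agps), with a median of 0.29 (0.18 without Acox2). In that comparison 33.7% of all genes tested were called higher and 33.3% lower. The difference between the classes was not tested. All genes called lower in MIZ than in undifferentiated cells, and both genes that were higher in MIZ than in vehicle cells, were enzymes or transporters. Such calls were common among all genes tested (33.3% and 35.9%). The summed level of the 17 was 716 ± 34.5 CPM in MIZ cells, 2061 ± 83.4 CPM in vehicle cells and 661 ± 1.86 CPM in undifferentiated cells.

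The largest differences were in the β-oxidation cycle, which an acyl-CoA oxidase opens and a thiolase closes. Acaa1b (ENSMUSG00000010651), thiolase B, had 3.74, 4.45 and 5.94 CPM in MIZ cells, 184.7, 179.5 and 187.0 CPM in vehicle cells and 0.409, 0.629 and 0.597 CPM in undifferentiated cells. MIZ cells were 39.4-fold below vehicle cells (-5.30 ± 0.129, adjusted p = 7.02e-11) and still above undifferentiated cells (3.08 ± 0.200, adjusted p = 2e-07), and no libraries of 2 groups overlapped. Its paralog Acaa1a (ENSMUSG00000036138), thiolase A, had 77.0, 73.7 and 76.6 CPM in MIZ cells, 195.2, 183.2 and 178.6 CPM in vehicle cells and 54.8, 54.3 and 56.0 CPM in undifferentiated cells. Acaa1a fell 2.45-fold in MIZ against vehicle cells (-1.29 ± 0.0452, adjusted p = 7.67e-10), and in vehicle cells both thiolases stood at nearly the same CPM. The pair lies on chromosome 9 of GRCm38, Acaa1b at 119148023 to 119157093 on the minus strand and Acaa1a at 119339676 to 119350299 on the plus strand. The annotated transcripts of the pair are 96.6% identical over 1428 aligned bases, and 13.3% of the windows of 150 bases in the Acaa1b transcript occur unchanged in that of Acaa1a, so the assignment of reads between them is uncertain. Myd88 overlaps 6.57% of the exonic bases of Acaa1a and Dlec1 11.4% of those of Acaa1b, each on the other strand.

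The upstream sequences of the pair are shown because the transcripts are near-identical and the levels are not, and that of Agps because its difference ran the other way. Each line is the 120 bases before the annotated start, 5′ to 3′ on the strand of the gene, from RefSeq on GRCm38.p6, at chr9:119157094-119157213 (minus strand) for Acaa1b, chr9:119341174-119341293 (plus strand) for Acaa1a and chr2:75832057-75832176 (plus strand) for Agps, with every CpG dinucleotide in capitals. GENCODE also annotates starts of Acaa1a further upstream.
Acaa1b: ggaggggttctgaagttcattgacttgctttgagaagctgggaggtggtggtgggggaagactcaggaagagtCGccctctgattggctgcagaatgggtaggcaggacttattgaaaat
Acaa1a: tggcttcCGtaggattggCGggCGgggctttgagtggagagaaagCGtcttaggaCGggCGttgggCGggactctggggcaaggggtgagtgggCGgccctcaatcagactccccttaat
Agps: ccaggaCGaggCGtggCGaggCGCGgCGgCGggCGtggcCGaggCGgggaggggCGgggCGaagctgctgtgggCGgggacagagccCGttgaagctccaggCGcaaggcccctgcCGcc
The lines hold 1 CpG for Acaa1b, 8 for Acaa1a and 16 for Agps. Between the RefSeq promoter windows of the thiolase pair (250 bases before to 50 after the start) blastn found 0 alignments at an E-value of 0.001 or less on the same strand. RefSeq windows were matched for 25 of the 30 genes. In the 250 bases before the start, Acaa1b held 2 CpG and Acox2 at most 3, the 2 lowest values, where the other 23 genes held 6 to 35 and the median of all genes was 6. These 2 genes were also the 2 with the largest differences between MIZ and vehicle cells, an observation made after the values were seen and not tested. Acox2 had to differ, because it passed the filter through the vehicle libraries alone, so the observation rests on Acaa1b. The element of PPAR and RXR was searched as AGGTCA, 1 base of any kind and AGGTCA again, on both strands. With up to 2 mismatches it was found in the windows of 1 of the 25 genes, Acox2, and of 4.40% of all 27025 genes with a window. With up to 1 mismatch it was found in 0 of the 25 and in 0.644% of all genes, and the shares with up to 2 mismatches were close. Sequence outside these windows was not searched.

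Acox2, the oxidase of bile acid intermediates, was at or near 0 outside vehicle cells. It had 0.0227, 0 and 0.0591 CPM in MIZ cells, 5.33, 7.64 and 7.83 CPM in vehicle cells and 0, 0.0225 and 0 CPM in undifferentiated cells. This rests on 3 counts in all MIZ libraries, 850 in all vehicle libraries and 1 in all undifferentiated libraries. The MIZ level was 0.00364 of the vehicle level by summed counts (exact 95% interval 0.000748 to 0.0107, for counting error only), and the vehicle level was 1060 times the undifferentiated one (189 to 41800). The values of Acox2 are a description, since the gene was tested only because of its vehicle libraries, and its fitted fold changes depend on the prior count. No fold is given between MIZ and undifferentiated cells, where both groups were at or under 3 counts and the difference did not pass (adjusted p = 0.334). Acox3, the oxidase of methyl-branched acyl-CoAs in rodents, took another course. It had 34.1, 32.1 and 29.3 CPM in MIZ cells, 72.2, 82.5 and 85.9 CPM in vehicle cells and 70.2, 72.7 and 75.9 CPM in undifferentiated cells. Vehicle and undifferentiated libraries overlapped, the only gene of the 30 for which they did (0.14 ± 0.0722, adjusted p = 0.102), and MIZ cells were below both, with differences of -1.33 ± 0.0749 from vehicle and -1.20 ± 0.0746 from undifferentiated cells (adjusted p = 3.5e-08 and 1.47e-07). Without vehicle library 1, the lowest of its group for this gene, Acox3 was called higher in vehicle than in undifferentiated cells (0.21, adjusted p = 0.00526).

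The other enzymes of the cycle fell by 1.83 to 2.08 on the log2 scale. Ehhadh, the L-bifunctional enzyme that takes both middle steps for straight-chain substrates, had 9.94, 14.9 and 14.5 CPM in MIZ cells, 65.9, 50.5 and 49.2 CPM in vehicle cells and 3.73, 3.17 and 3.64 CPM in undifferentiated cells. Vehicle library 1, the shallowest of the 9, was the highest for Ehhadh, and MIZ differed from vehicle by -2.08 ± 0.154 with it and by -1.94 without it. Hsd17b4, the D-bifunctional enzyme for branched substrates, had 89.4, 91.4 and 99.3 CPM in MIZ cells, 400.9, 351.6 and 351.2 CPM in vehicle cells and 90.0, 88.2 and 87.4 CPM in undifferentiated cells. Its MIZ libraries overlapped with the undifferentiated ones (0.08 ± 0.0613, adjusted p = 0.298), while those of Ehhadh were all above them (1.89 ± 0.176, adjusted p = 3.38e-06). Scp2, the gene of the thiolase for branched substrates and of a sterol carrier protein, averaged 114 ± 7.45 CPM in MIZ cells, 405 ± 23.9 CPM in vehicle cells and 84.8 ± 1.81 CPM in undifferentiated cells, a difference of -1.83 ± 0.0602 from vehicle and of 0.43 ± 0.0591 from undifferentiated cells.

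The acyl-CoA transporters of the membrane differed in where MIZ cells stood. Abcd2, which carries very-long-chain acyl-CoAs, had 32.4, 41.0 and 46.8 CPM in MIZ cells, 98.3, 98.7 and 98.1 CPM in vehicle cells and 9.18, 7.82 and 8.24 CPM in undifferentiated cells. MIZ cells lay below vehicle (-1.30 ± 0.108) and well above undifferentiated cells (2.25 ± 0.119, adjusted p = 4.33e-08). Abcd3, which carries branched and dicarboxylic acyl-CoAs, had 55.0, 56.8 and 55.4 CPM in MIZ cells, 153.8, 148.2 and 148.7 CPM in vehicle cells and 71.9, 70.5 and 69.5 CPM in undifferentiated cells. For Abcd3 the MIZ level was the lowest of the groups, with a difference of -1.43 ± 0.0396 from vehicle and of -0.34 ± 0.0392 from undifferentiated cells (adjusted p = 1.73e-05).

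The α-oxidation genes, which shorten phytanic acid by a single carbon, both fell strongly. Phyh, phytanoyl-CoA hydroxylase, had 16.1, 15.9 and 14.5 CPM in MIZ cells, 102.5, 112.4 and 112.5 CPM in vehicle cells and 26.2, 24.0 and 25.4 CPM in undifferentiated cells. Its fall against vehicle was 7.04-fold (-2.81 ± 0.0632, adjusted p = 4.44e-11), and MIZ cells were also below undifferentiated cells (-0.70 ± 0.0624, adjusted p = 2.36e-06), with no overlap in either comparison. Hacl1, the hydroxyacyl-CoA lyase of the next steps, had 7.82, 8.96 and 9.52 CPM in MIZ cells, 33.7, 33.1 and 29.5 CPM in vehicle cells and 9.41, 9.37 and 10.8 CPM in undifferentiated cells. It fell by 1.87 ± 0.0932 on the log2 scale against vehicle and overlapped with undifferentiated cells (-0.17 ± 0.0951, adjusted p = 0.127).

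Of the auxiliary enzymes, Amacr, the racemase that readies branched substrates for β-oxidation, had 7.09, 5.65 and 5.79 CPM in MIZ cells, 23.9, 22.9 and 24.5 CPM in vehicle cells and 8.38, 7.73 and 7.73 CPM in undifferentiated cells. Decr2, the dienoyl-CoA reductase for unsaturated chains, had 22.2, 19.4 and 22.4 CPM in MIZ cells, 39.5, 40.3 and 39.96 CPM in vehicle cells and 27.0, 27.7 and 27.1 CPM in undifferentiated cells. The MIZ libraries of both genes lay below all others, with differences from vehicle of -1.94 ± 0.0919 (Amacr) and -0.90 ± 0.0596 (Decr2) and from undifferentiated cells of -0.36 ± 0.0940 and -0.35 ± 0.0596 (adjusted p = 0.00604 and 0.00032). Pecr, a peroxisomal enoyl-CoA reductase of chain elongation, had the smallest fall of the 28 genes. It had 6.25, 5.67 and 5.82 CPM in MIZ cells, 6.75, 7.90 and 7.50 CPM in vehicle cells and 3.20, 3.06 and 3.48 CPM in undifferentiated cells. The groups did not overlap, and the difference from vehicle (-0.32 ± 0.0980, adjusted p = 0.0123) did not pass when counts were scaled by library totals alone (-0.19, adjusted p = 0.116).

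**Figure D3:**
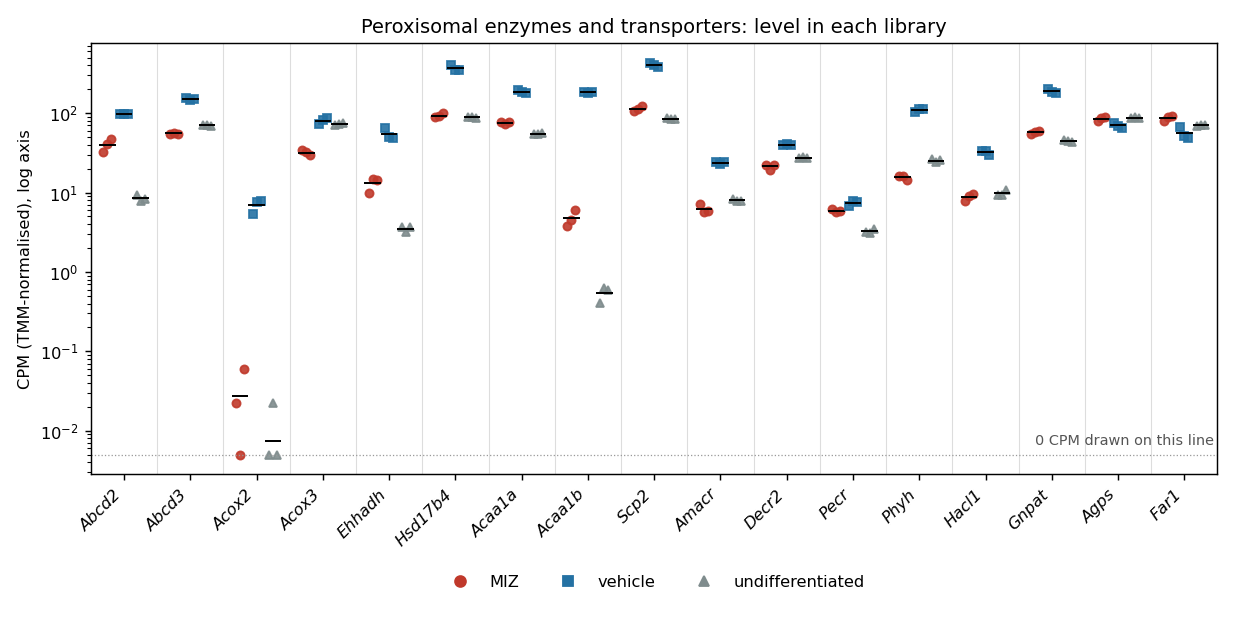
Level of each of the 17 enzymes and transporters in each library (y axis, CPM, log axis), with MIZ, vehicle and undifferentiated libraries side by side for each gene; points are libraries, black lines the mean of 3, and libraries with 0 counts are drawn on the dotted line. Acox2 and Acaa1b span the widest range between groups, and Agps and Far1, at the right, are the genes whose vehicle points lie lowest.

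The ether lipid genes went apart from each other. Gnpat and Agps encode the consecutive acyltransferase and alkyl synthase in the peroxisome, and Far1 the reductase that supplies the fatty alcohol. Gnpat followed the other genes, with 55.0, 57.4 and 60.0 CPM in MIZ cells, 201.4, 186.7 and 181.1 CPM in vehicle cells and 45.6, 44.0 and 43.7 CPM in undifferentiated cells (-1.72 ± 0.0532 between MIZ and vehicle cells, adjusted p = 3.02e-10). Agps had 78.7, 86.2 and 90.5 CPM in MIZ cells, 76.1, 69.0 and 65.7 CPM in vehicle cells and 86.7, 90.2 and 86.8 CPM in undifferentiated cells. The lowest MIZ library of Agps lay just above the highest vehicle library, with a difference of 0.28 ± 0.0649 (adjusted p = 0.00275), and vehicle cells were below undifferentiated cells (-0.32 ± 0.0647, adjusted p = 0.000806).

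Far1 had 79.3, 89.2 and 91.8 CPM in MIZ cells, 66.6, 51.3 and 48.6 CPM in vehicle cells and 69.6, 71.7 and 71.0 CPM in undifferentiated cells. It was higher in MIZ than in vehicle cells (0.65 ± 0.103, 1.57-fold, adjusted p = 0.000174) and lower in vehicle than in undifferentiated cells (-0.36 ± 0.102, adjusted p = 0.00824). Vehicle library 1 stood apart from the other 2 for this gene, and without it the differences were 0.79 and -0.50 (adjusted p = 1.48e-07 and 9.16e-06). Far1 was also higher in MIZ than in undifferentiated cells, with no overlap (0.29 ± 0.101, adjusted p = 0.0244). That call was lost without MIZ replicate 2 (adjusted p = 0.0721), MIZ replicate 3 (0.0812), or undifferentiated replicate 1 (0.0779), 2 (0.0604) or 3 (0.0658), with differences of 0.25 to 0.30 on the log2 scale. In MIZ cells the 3 genes of the pathway thus stood at 57.4 ± 2.54 (Gnpat), 85.1 ± 5.94 (Agps) and 86.8 ± 6.60 CPM (Far1), against 190 ± 10.5, 70.3 ± 5.32 and 55.5 ± 9.69 CPM in vehicle cells.

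**Figure D4:**
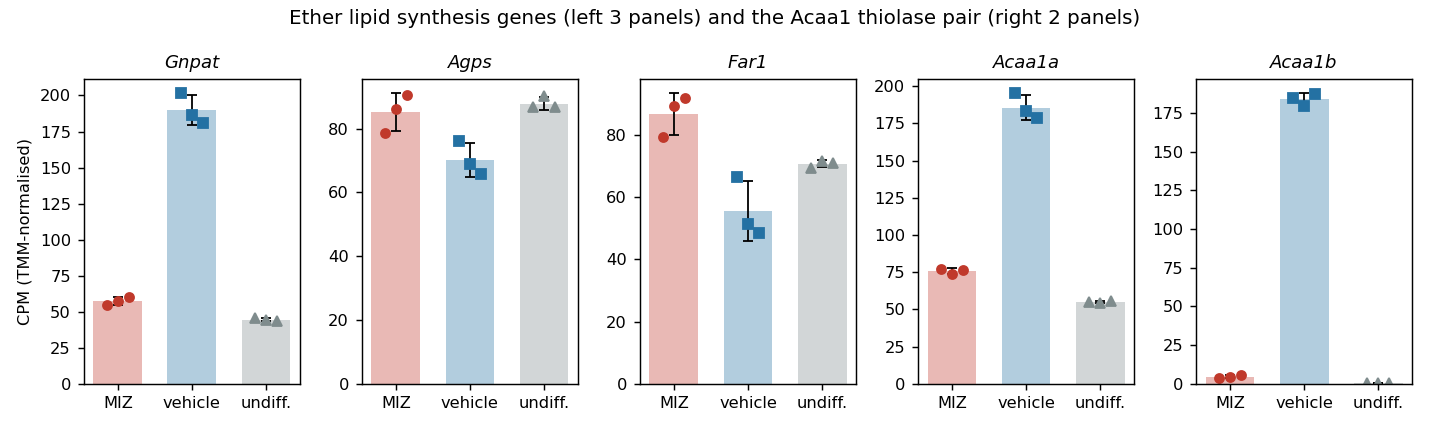
Level (y axes, CPM on linear axes that start at 0, each panel with its own range) of Gnpat, Agps, Far1, Acaa1a and Acaa1b in MIZ, vehicle and undifferentiated cells; bars are means, error bars the SD of 3 libraries and points the libraries. Vehicle is the highest group for Gnpat and both thiolases and the lowest for Agps and Far1, and Acaa1b falls to 4.71 CPM on average in MIZ cells, against 184 CPM in vehicle cells.

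The order of levels within a group was compared per kilobase of annotated exon, since longer genes gather more counts. In MIZ cells the highest were Scp2 (32.8 ± 2.14 CPM per kb), Hsd17b4 (27.4 ± 1.54) and Pex19 (26.9 ± 0.636), and Acaa1b ranked 23 of 30 at 2.40 ± 0.573. In vehicle cells the highest were Scp2 (116 ± 6.87), Hsd17b4 (108 ± 8.41) and Acaa1b (93.7 ± 1.95), and in undifferentiated cells Hsd17b4 (26.0 ± 0.393), Scp2 (24.4 ± 0.521) and Pex19 (19.0 ± 0.849), with Acaa1b ranked 29 at 0.278 ± 0.0607. Scp2 and Hsd17b4 were within 1 SD of each other in vehicle cells, as were Hsd17b4 and Pex19 in MIZ cells. Pex16 ranked 5 in vehicle cells (63.8 ± 1.83), 9 in MIZ cells (10.5 ± 1.09) and 17 in undifferentiated cells (4.75 ± 0.144). Acox2 was last of the 30 in every group.

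Replicates were close for most of these genes. The median coefficient of variation among the 3 libraries was 7.32% for biogenesis factors in MIZ cells, 3.49% in vehicle cells and 3.71% in undifferentiated cells, and 7.26%, 5.90% and 3.11% in the same groups for enzymes and transporters. Of the 30 genes, 10 overlap a counted gene on the opposite strand, by 0.0431% to 28.3% of their exonic bases, and the share of such reads was not tested.

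Peroxisomal genes outside these 30 were also lower in MIZ than in vehicle cells. Of 36 listed, 31 passed the filter, and Slc27a2, Pipox, Dao, Hao1 and Hao2 did not. This list too was chosen with earlier results of these data known. All 31 were lower in MIZ than in vehicle cells, with a median of -1.51, and 20 by more than 2-fold, and for 1 of them (Abcd4) the libraries of the groups overlapped. Of all genes tested, 35.1% were called lower there and 16.8% lower by more than 2-fold, and 36.0% had all MIZ below all vehicle libraries. In vehicle cells 29 of the 31 were higher than in undifferentiated cells and 2 were lower (36.2% and 41.5% of all genes tested). Against undifferentiated cells 14 were higher in MIZ cells, 7 lower and 10 did not pass. In that comparison 33.7% of all genes tested were called higher and 33.3% lower. The largest falls against vehicle were those of Far2, the second alcohol-forming reductase (0.166 ± 0.0220 CPM in MIZ cells, 5.66 ± 2.99 CPM in vehicle cells), Ddo, D-aspartate oxidase (0.722 ± 0.275 CPM against 18.5 ± 2.33 CPM), and Ephx2, soluble epoxide hydrolase (61.6 ± 5.22 CPM against 577 ± 26.5 CPM). Far2 fell by 5.10 ± 0.495 on the log2 scale, in the direction opposite to Far1.

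Other lists set these values in context. The fission machinery that peroxisomes share with mitochondria was split, with Dnm1l (-0.45 ± 0.0521) and Mff (-0.55 ± 0.0380) lower and Fis1 (0.26 ± 0.0472) and Gdap1 (2.06 ± 0.305) higher in MIZ than in vehicle cells. The level of Gdap1 was low, at 0.92 ± 0.17 CPM in MIZ and 0.23 ± 0.07 CPM in vehicle cells. Of 18 genes of mitochondrial β-oxidation, 17 were lower and 1, Cpt1a, higher in MIZ than in vehicle cells, with a median of -2.70. In this comparison 35.1% of all genes tested were called lower and 35.9% higher. All 8 genes of PPAR receptors, partners and coactivators were lower, with a median of -3.17. Among them Ppara averaged 1.71 ± 0.201 CPM in MIZ cells, 72.2 ± 3.38 CPM in vehicle cells and 0.701 ± 0.180 CPM in undifferentiated cells, and Pparg 21.6 ± 2.66, 174 ± 9.90 and 8.12 ± 0.827 CPM in the same groups. The part of these regulators in the levels of the peroxisomal genes was not tested.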

How the data were processed

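Read counts per gene were deposited by the authors as raw, unnormalised counts, 1 table a library. Per the labels reads were trimmed with Trim Galore 0.6.7, aligned with STAR to mm10 and counted with HTSeq. The study's methods name STAR's own gene counts, and neither source gives strand or annotation release. Gene identifiers were matched to symbols for 32158 of 32285 rows. edgeR 4.0.16 (R 4.3.3) was fitted to all 9 libraries (TMM, quasi-likelihood test), after a filter of at least 5 counts in at least 3 libraries that left out 15112 genes and kept 99.987% of counts. The biological coefficient of variation was 0.0806, and the script was tested on simulated data. Exon lengths came from GENCODE on GRCm38 and promoters from RefSeq. blastn 2.17.0 compared sequences, and matplotlib 3.10.9 drew figures. The members and lists were chosen with earlier results of these data known. Values were given for every library of the 3 largest changes in each class and direction, of genes whose call differed from their class or did not pass, of genes lower in MIZ than in undifferentiated cells, and of paralogs, with others added for completeness. Some genes are not reported here. Alternatives were DESeq2 1.42.0, other scalings and filters, a replicate block, fits of 6 libraries and leaving out each library. Precision rests on 3 libraries a group, and intervals on counts cover counting error only.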

Additional observations from a re-analysis of the deposited data

How the results depend on the processing

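There were 18 alternative settings, 9 of which left out a library. The 87 differences of the genes other than Acox2 were fitted under all 18, and those of Acox2 under 15, since without vehicle replicate 1, 2 or 3 it did not pass the filter. A difference counted as reversed where its sign changed and it passed the threshold in the fit of 9 libraries or in the alternative. Sign changes of differences that passed in neither were not counted. Of the differences fitted, 0 reversed and 5 changed sides of the threshold under at least 1 setting. Those of Pex11g, Acox3, Far1 and Pecr are given with their values above. The fifth is Pex26 between MIZ and undifferentiated cells, which passed with only the 6 libraries compared (-0.21, adjusted p = 0.0477), so that 1 biogenesis factor was then lower in MIZ than in undifferentiated cells, and the cause was not tested. Acox3 between vehicle and undifferentiated cells also passed with DESeq2 (0.18, adjusted p = 0.0328), DESeq2's size factors (0.18, 0.0316) and only the 6 libraries compared (0.19, 0.0369). Scaling by library totals moved the median of all genes to 0.16 between MIZ and vehicle cells and to -0.25 between vehicle and undifferentiated cells, where TMM gave 0.02 and -0.08. Of the 31 other peroxisomal genes tested, 30 were lower in MIZ than in vehicle cells with upper quartile scaling, with library totals, with only the 6 libraries compared and without MIZ replicate 1 or 3, vehicle replicate 2 or 3 or undifferentiated replicate 1 or 3, and 31 under each other setting. Between vehicle and undifferentiated cells 30 to 32 were called over all settings, the 32 with no filter on low counts, where more genes are tested. Same-numbered libraries did not deviate together (9 correlations of -0.0447 to 0.063), so the numbers were not taken to pair the libraries. With the replicate number as a block, 30, 29 and 21 of the 30 genes were called between MIZ and vehicle, vehicle and undifferentiated, and MIZ and undifferentiated cells, and among the 30 genes the block changed the call of Pex11g alone.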
